A study of Mus musculus with 19 samples.

Results

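Expression of 10 genes of the immediate early response was measured in the retina of mice in which Pou3f1, which encodes a POU domain transcription factor, was added or removed. The members are Fos, Fosb, Jun, Junb, Egr1, Egr2, Arc, Npas4, Dusp1 and Ier2. They were picked by gene symbol, and all 10 are listed in each of the 3 tables, out of 35734 genes listed in any of them. The sorted cells came from CD1 wild-type pups whose eyes were electroporated on postnatal day 1 with a Pou3f1 plasmid or with a control Gfp plasmid, in either case at 3 ug per ul of DNA. The 14 day groups held 5 Pou3f1 and 4 Gfp libraries, and the 48 h groups 3 Pou3f1 and 3 Gfp libraries. Each library was made from about 150000 sorted fluorescent cells, pooled from several sorts after the retina was dissociated. The labels do not name the promoter of the plasmid. The remaining 4 libraries were whole retinas taken at E17.5 from C57B6J embryos, namely 2 homozygous Pou3f1 knockouts and 2 heterozygotes, so that the heterozygous group carried a mutant allele too. The labels give the late time as 14 days after electroporation, the protocol text as postnatal day 14, and the name of the embryonic table gives another embryonic day than its samples.

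Immediate early genes are transcribed within minutes of a stimulus such as neuronal firing, a growth factor or the handling and dissociation of tissue, without the need for new protein. Calcium and MAP kinase signals reach transcription factors that already sit at their promoters, chiefly CREB at cyclic AMP response elements and SRF with its partners at CArG boxes. Fos, Fosb, Jun and Junb encode subunits of the AP-1 dimer, Egr1 and Egr2 zinc finger factors, Npas4 a factor induced by neuronal activity, Arc a synaptic protein that acts in the removal of AMPA receptors, and Dusp1 a phosphatase that turns MAP kinases off. Ier2 encodes a small nuclear protein of the same early wave.

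The upstream sequences of the 3 members that changed in any comparison, and of Fos as the best known member, are shown. Each holds at least the core of a cyclic AMP response element. The stretches are the 200 bases before the transcript start, from RefSeq on GRCm38.p6, the build equal to mm10, and the capitals mark matches on either strand to TGACG (the core of the cyclic AMP response element), to its full palindrome TGACGTCA, to the CArG box and to the octamer ATGCAAAT, which POU factors bind. RefSeq lists 5 starts for Egr2, and the stretch shown belongs to 1 of the 3 starts whose windows hold the octamer.
Egr2 at chr10:67537669-67537868, + strand: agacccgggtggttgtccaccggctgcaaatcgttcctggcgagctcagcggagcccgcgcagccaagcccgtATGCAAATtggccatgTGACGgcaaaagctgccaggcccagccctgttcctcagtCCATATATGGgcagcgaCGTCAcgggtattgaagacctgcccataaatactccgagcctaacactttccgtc
Fosb at chr7:19310046-19310245, - strand: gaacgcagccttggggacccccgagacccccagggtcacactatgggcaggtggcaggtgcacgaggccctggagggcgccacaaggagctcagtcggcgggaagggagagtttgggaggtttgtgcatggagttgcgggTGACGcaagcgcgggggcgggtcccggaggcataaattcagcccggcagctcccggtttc
Dusp1 at chr17:26508473-26508672, - strand: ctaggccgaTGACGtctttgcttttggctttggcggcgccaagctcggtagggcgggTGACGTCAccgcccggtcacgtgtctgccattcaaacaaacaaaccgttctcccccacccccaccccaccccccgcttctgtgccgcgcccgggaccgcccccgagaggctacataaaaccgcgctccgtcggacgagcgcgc
Fos at chr12:85473690-85473889, + strand: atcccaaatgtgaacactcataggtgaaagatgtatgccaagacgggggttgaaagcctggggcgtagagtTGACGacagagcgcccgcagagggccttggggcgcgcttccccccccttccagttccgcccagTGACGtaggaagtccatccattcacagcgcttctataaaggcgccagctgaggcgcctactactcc

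The table of promoters, each from 250 bases before to 50 after a start, held 7 of the 10 members (Fos, Fosb, Jun, Junb, Egr2, Npas4 and Dusp1). TGACG was present in a window of 6 of these 7 genes, the exception being Jun, against 23.0% of all 27018 genes in the table. The full palindrome was present in Dusp1 alone among the 7, where it begins 143 bases before the start, against 2.03% of all genes. A CArG box was found in Egr2 alone among the 7, 72 bases before the start shown, against 1.81% of all genes. The octamer was likewise found in Egr2 alone among the 7, where it begins 127 bases before the start shown, against 1.97% of all genes. The palindrome overlaps TGACG on both strands, and these matches describe letters, not bound sites. Matches beyond these windows were not sought, so a gene without a match here may hold the element further from its start.

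Each table gives 1 line per gene with the authors' log2 fold change and p-values, and no values per library, so no member can be shown sample by sample, and how deeply any library was sequenced is unknown. Summed over all genes listed, the mean normalized counts came to 38507471 at 14 days and 16020842 at 48 h, and the E17.5 table gives no abundance. The added or deleted gene itself, Pou3f1, had log2 fold changes of 5.57 ± 0.27 (SE) at 14 days (adjusted p = 3.40e-88) and 0.91 ± 0.26 at 48 h (adjusted p = 0.0233) in the authors' deposited tables, and -0.69 at E17.5 in the knockout (adjusted p = 1.98e-08). The directions of the tables were read from these signs. The mean count of Pou3f1 over both plasmids was 16972 at 14 days and 37279 at 48 h. Its fold change was 47.6 at 14 days and 1.87 at 48 h, on a scale shrunken toward 0. How much Pou3f1 RNA the Gfp cells held at either time is not given. All 6 rod markers, rhodopsin among them, were listed at 14 days with mean counts of 58428 to 1145791, while 2 of the 6 were listed at 48 h, where 6 of 6 progenitor markers had mean counts of 1555 to 36705. In sorted pools and whole retinas alike, fewer cells of a type and less RNA per cell cannot be told apart. The labels do not say whether libraries came from separate litters, so the p-values measure the spread between these samples.

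The 14 day comparison asks how cells differ at the late time after Pou3f1 was added to the newborn retina. Of the 10 members, 1 rose in Pou3f1 cells against Gfp cells, 0 fell and 9 did not pass at the authors' adjusted p under 0.05, a limit passed by 20.7% of all 17789 genes tested (11.5% higher and 9.21% lower). With an unadjusted p under 0.05 it was 2 of 10, Egr2 and Jun, against 32.5% of all genes tested. The member that rose was Egr2, a zinc finger factor known for its role in myelinating Schwann cells, which lies at chr10:67535475-67542188 on GRCm38. Egr2 had a log2 fold change of 0.77 ± 0.28 (1.71-fold, 95% interval 0.22 to 1.32 on the log2 scale, adjusted p = 0.0323) in the authors' deposited table, where its mean count was 48.0. Its gene family member Egr1 had -0.12 ± 0.21 (adjusted p = 0.749) there, with a mean count of 6079 (the authors' deposited table).

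The AP-1 genes did not pass the test at 14 days. In the authors' deposited table Jun had a log2 fold change of 0.19 ± 0.094 (adjusted p = 0.140, unadjusted p = 0.0438) at a mean count of 3330. Fos had 0.086 ± 0.24 (95% interval -0.39 to 0.56, adjusted p = 0.846) and a mean count of 1526 (the authors' deposited table). The values of the other AP-1 members in the authors' deposited table were -0.11 ± 0.25 for Fosb and -0.062 ± 0.20 for Junb (adjusted p = 0.795 and 0.864). None of these 4 intervals reached a 2-fold change in either direction. They rest on fold changes shrunken toward 0 and the SE deposited with them, so a 2-fold change is not excluded.

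The neuronal genes, the phosphatase and Ier2 did not pass at 14 days. Arc had 0.13 ± 0.30 (adjusted p = 0.815) and Npas4 -0.081 ± 0.30 (adjusted p = 0.885) in the authors' deposited table, at mean counts of 44.9 and 10.4. Dusp1 had 0.019 ± 0.16 (adjusted p = 0.952) and Ier2 0.15 ± 0.18 (adjusted p = 0.604) in the authors' deposited table. The median log2 fold change of the 10 members was 0.053, beside -0.015 over all genes tested, and 4 of the 10 were below 0, as were 52.2% of all genes tested. With the deposited SE, the deposited fold change of a member had to reach between 1.18-fold (Jun) and 1.70-fold (Arc) to be called with these libraries. That scale is shrunken toward 0, so the change in RNA needed may be larger.

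Markers of microglia, the resident immune cells of the retina, were called in the same direction as Egr2 at 14 days. All 7 of 7 rose, with a median log2 fold change of 1.66 and a range of 1.02 to 1.80 in the authors' deposited table. Their mean counts ran from 39.1 to 724 and summed to 1973, with none at 0, and the table gives no sums per group. Of 6 progenitor markers 2 rose (Ccnd1 and Fgf15) and 0 fell, with a median of 0.53. Cone markers had 4 falls and 0 rises of 6 (median -0.73), rod markers 4 falls and 0 rises of 6 (median -0.47), and Müller glia markers 3 falls and 0 rises of 7 (median -0.39). Of the other lists, bipolar cell markers gave 2 rises and 1 fall of 7, amacrine cell markers 1 rise of 6, ganglion cell markers 1 rise of 8 and blood vessel markers 0 of 6 (3 at an unadjusted p under 0.05). The part of these cell types in the Egr2 value was not tested.

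**Figure D1:**
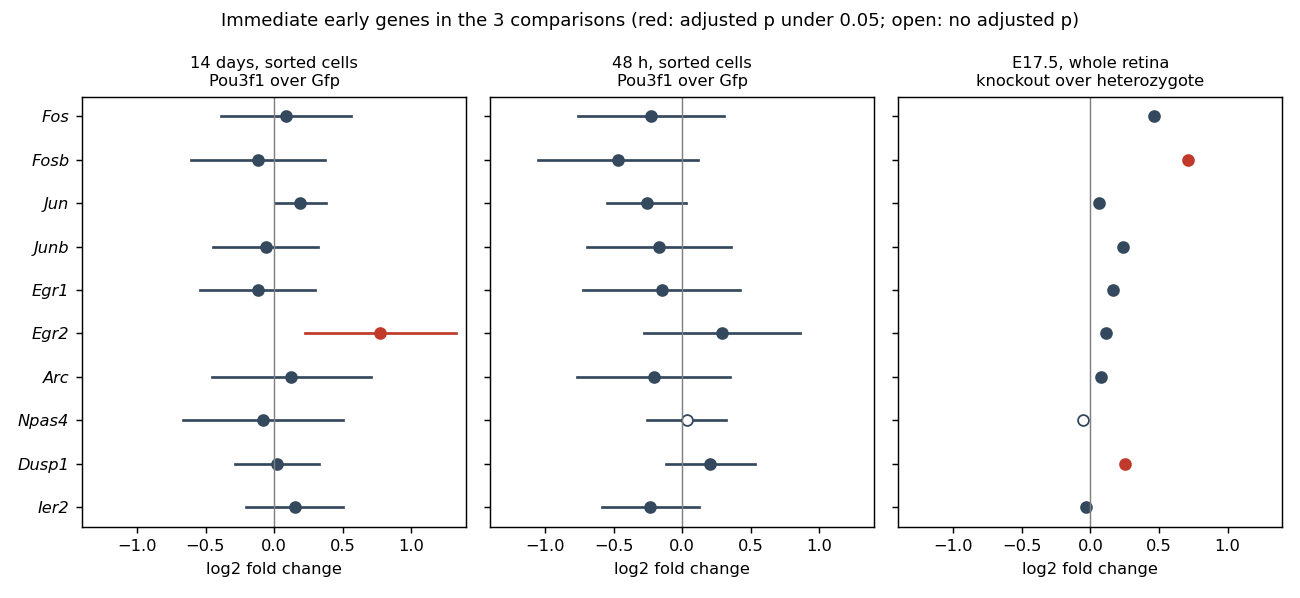
Log2 fold change (horizontal axes) of the 10 immediate early genes, 1 per line, in Pou3f1 over Gfp cells at 14 days (left) and 48 h (middle), with bars for the 95% interval from the deposited SE, and in E17.5 knockout over heterozygous retina (right), where no SE is given. Red marks an adjusted p under 0.05, which Egr2 had at 14 days and Fosb and Dusp1 at E17.5, and open points mark Npas4 where it has no adjusted p.

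The 48 h comparison asks how cells respond soon after the plasmid enters the newborn retina. The deposited contrast in Pou3f1 itself was 1.87-fold there, against 47.6-fold at 14 days. Of the 9 members with an adjusted p, 0 rose and 0 fell in the authors' DESeq2 values, against 3.04% of all 14714 genes tested (1.48% higher and 1.56% lower). With an unadjusted p under 0.05 the count was also 0 of 9, against 14.7% of all genes tested. Npas4, at a mean count of 2.05, has no adjusted p there.

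The AP-1 genes all had negative values that did not pass at 48 h. In the authors' deposited table Fosb had a log2 fold change of -0.47 ± 0.30 (95% interval -1.05 to 0.11, adjusted p = 0.487) at a mean count of 47.9. Jun had -0.26 ± 0.15 (adjusted p = 0.425), the smallest adjusted p of the members, and a mean count of 3365 (the authors' deposited table). Fos had -0.23 ± 0.27 (adjusted p = 0.780) and Junb -0.17 ± 0.27 (adjusted p = 0.845) in the authors' deposited table.

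Both zinc finger genes stayed short of the limit as well, with -0.15 ± 0.29 for Egr1 and 0.29 ± 0.29 for Egr2 (from the authors' deposited table, with adjusted p = 0.885 and 0.727). Arc had -0.21 ± 0.28 and Ier2 -0.23 ± 0.18 (from the authors' deposited table, with adjusted p = 0.813 and 0.609). Dusp1 was above 0, at 0.20 ± 0.17 (from the authors' deposited table, with adjusted p = 0.637). The members' median was -0.21, beside -0.0059 over all genes tested, and 7 of 9 were below 0, as were 50.9% of all genes tested. On the same shrunken scale, a member had to reach between 1.38-fold (Jun) and 1.92-fold (Fosb) to be called at 48 h. Of 6 blood vessel markers 1 fell (Kdr) and 5 did not pass at 48 h (median -0.37), of 4 cone markers tested 1 fell (Thrb, median -0.36), and of 12 chaperone genes 0 rose and 0 fell (4 at an unadjusted p under 0.05, median -0.20). Of 4 microglia markers tested 0 rose and 0 fell (0 at an unadjusted p under 0.05, median -0.38).

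The effect of Pou3f1 was then compared between the times by a two-sided z test on the difference of the log2 fold changes, 14 days minus 48 h, with both deposited SE and adjustment over 14580 genes. None of the 9 members tested passed, against 6.14% of all genes, and 1 of 9 had an unadjusted p under 0.05. That member was Jun, at 0.19 at 14 days and -0.26 at 48 h, a difference of 0.45 ± 0.17 (95% interval 0.11 to 0.79, adjusted p = 0.105). Egr2, called at 14 days and not at 48 h, had a difference of 0.48 ± 0.40 (95% interval -0.31 to 1.27, adjusted p = 0.561), so its effect is not shown to differ between the times. Nor is it shown that the members' effects were alike, since their 95% intervals reached from -0.68 (Egr1) to 1.27 (Egr2). Differences were above 0 for 8 of 9 members, as for 53.1% of all genes, with a median of 0.33 beside 0.026 over all genes, and below 0 for Dusp1 (-0.19 ± 0.23, adjusted p = 0.726).

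**Figure D2:**
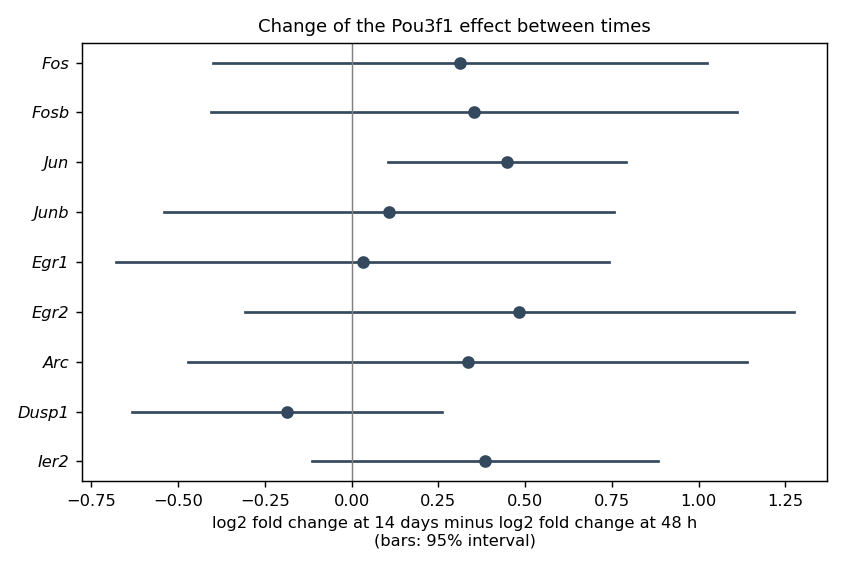
Difference of the Pou3f1 effect, log2 fold change at 14 days minus that at 48 h (horizontal axis), for the 9 immediate early genes tested at both times, with bars for the 95% interval. Jun, at 0.45, is the gene whose interval lies above 0, and the other 8 intervals include 0.

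The levels of the members are known for both plasmids together, as the mean normalized count of a comparison. Per kilobase of annotated exon, Egr1 was the most abundant at 14 days with a mean count of 1356, ahead of Jun (1044), Ier2 (683), Fos (649) and Junb (446), in the authors' deposited table divided by exon length. Dusp1 followed with 131 and Fosb with 56.1 per kilobase, and Arc (14.7), Egr2 (14.1) and Npas4 (2.51) were lowest. At 48 h Jun led with 1055 per kilobase, ahead of Ier2 (626), Egr1 (259), Fos (190), Dusp1 (168) and Junb (132). Arc (21.2), Egr2 (7.92), Fosb (7.67) and Npas4 (0.496) made up the low end at that time. Without values per library no spread can be set on these levels, so neighbours in either order are not shown to differ.

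The tables were normalized separately, so a level set across the times is a description only. As a share of the summed mean counts, Fosb stood at 9.09 per 1000000 at 14 days and 2.99 per 1000000 at 48 h, a ratio of 3.04. Egr1 stood at 158 per 1000000 at 14 days and 72.4 at 48 h, a ratio of 2.18, while Fos and Junb had ratios of 1.42 and 1.41. Jun ran the other way with 86.5 per 1000000 at 14 days and 210.1 at 48 h, and so did Ier2 with 27.0 and 59.5 per 1000000. Dusp1 (11.3 per 1000000 at 14 days and 34.7 at 48 h) and Arc (1.17 and 4.05) were lower at 14 days as well. Egr2 had 1.25 per 1000000 at 14 days and 1.68 at 48 h, and Npas4 had 0.270 and 0.128. On this scale the AP-1 subunits did not share a direction. The direction depends on the scale for some members. Before division by the summed counts, Egr2 had a mean count of 48.0 at 14 days and 26.9 at 48 h. Ier2 had 1039 and 953, and Jun 3330 and 3365.

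**Figure D3:**
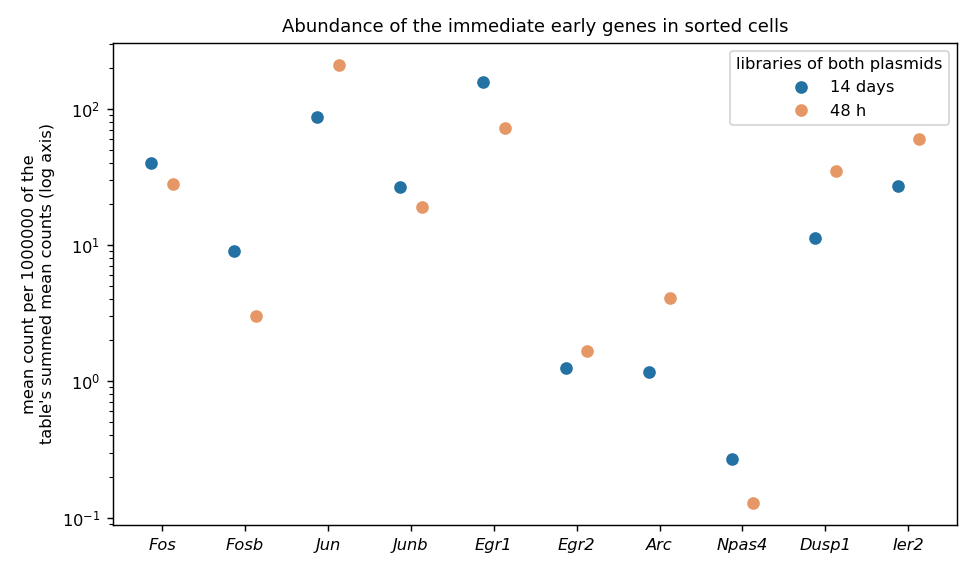
Mean count per 1000000 of the table's summed mean counts (vertical log axis) for each immediate early gene over the libraries of both plasmids, at 14 days (blue, left of each pair) and 48 h (orange). Fosb and Egr1 lie higher at 14 days, and Jun, Ier2, Dusp1 and Arc lie higher at 48 h.

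The precision of the members' fold changes was set beside that of genes of like abundance, meaning every gene tested whose mean count was within 2-fold. At 14 days the SE was above the median of such genes for 10 of 10 members, and for 6 of 10 it was above the 90th percentile. The SE of Fos was 0.24, 2.45 times the median of such genes, and larger than that of 98.8% of them. The SE of Egr1 was 0.21, or 2.36 times that median, and those of Junb, Ier2 and Fosb were 1.83, 1.70 and 1.65 times. Jun, with an SE of 0.094 at 1.03 times the median, and Dusp1, with 0.16 at 1.13 times, lay close to it.

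At 48 h the SE was above that median for 6 of 9 members and above the 90th percentile for 4 of 9. Egr1 led with an SE of 0.29 and 1.77 times the median, larger than that of 99.4% of genes of like abundance, followed by Fos (1.42 times) and Junb (1.29 times). Jun (0.956 times) and Dusp1 (0.902 times) lay below the median. No SE in either deposited table exceeds 0.297, so the low members could exceed the median by little in ratio. Arc's SE at 14 days, for instance, was 1.13 times the median of genes of like abundance and yet larger than that of 99.4% of them.

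**Figure D4:**
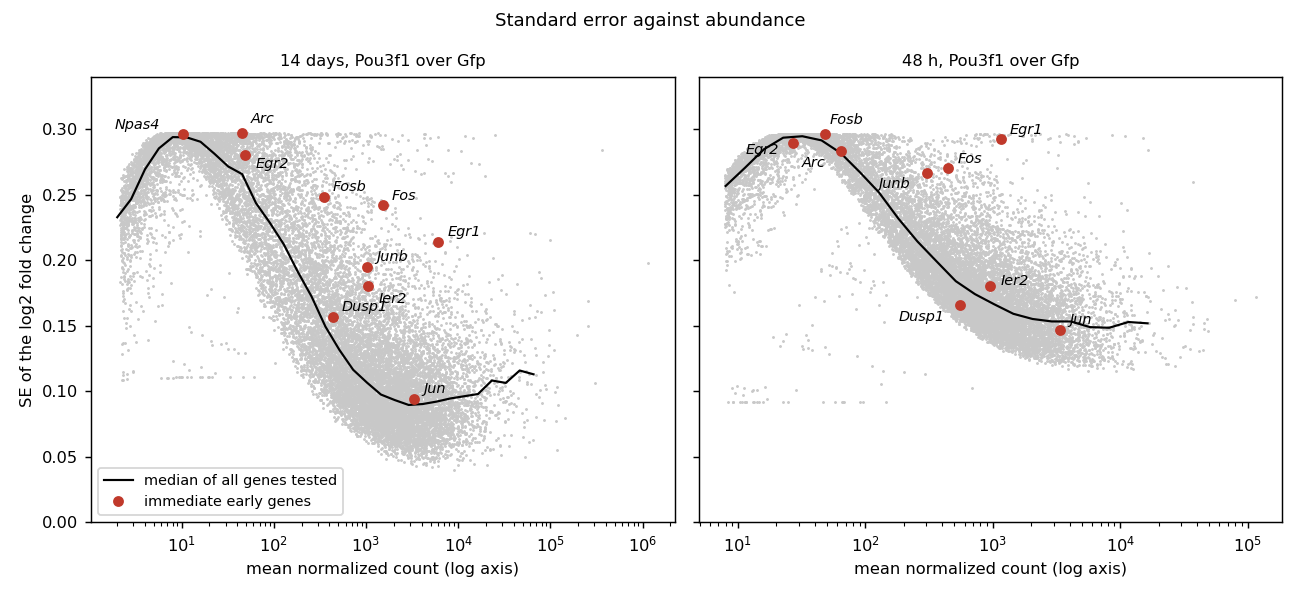
SE of the log2 fold change (vertical axis) against mean normalized count (horizontal log axis) for all genes tested (grey) and the immediate early genes (red) at 14 days (left) and 48 h (right), with the black line for the median SE along the count. Fos, Egr1 and Junb lie far above the line at both times, while Jun lies close to it.

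The E17.5 comparison asks what the loss of Pou3f1 changes in the embryonic retina, with 2 libraries a group. Pou3f1 RNA itself was 0.62-fold in the knockout against the heterozygote by the deposited value, and why it was not lower was not tested. The members' log2 fold changes and p-values imply a median SE of 0.164 here. The E17.5 fold changes may thus be shrunken toward 0 too, and may understate change. Of the 9 members with an adjusted p, 2 rose in the knockout against the heterozygote, 0 fell and 7 did not pass, while 4.70% of all 14821 genes tested were called higher and 5.34% lower. With an unadjusted p under 0.05 the count was 3 of 9, Fosb, Dusp1 and Fos, against 21.2% of all genes tested. The members that rose were Fosb, which forms AP-1 dimers with Jun proteins and lies at chr7:19302696-19310051, and Dusp1, annotated at chr17:26505590-26562128. Fosb had a log2 fold change of 0.71 (1.63-fold, adjusted p = 0.000876) and Dusp1 of 0.25 (1.19-fold, adjusted p = 0.0459) in the authors' deposited table, which gives neither an SE nor an abundance. The Dusp1 call did not hold when p-values were adjusted over all genes that have a p-value (adjusted p = 0.0749).

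Fos, at chr12:85473890-85477273, had 0.46 (1.38-fold) with an adjusted p of 0.0651 in the authors' deposited table and so did not pass (unadjusted p = 0.00733). Junb (0.24), Egr1 (0.16), Egr2 (0.11), Arc (0.079) and Jun (0.066) were above 0 and did not pass (from the authors' deposited table, with adjusted p between 0.433 and 0.868). Ier2 had -0.031 (adjusted p = 0.932), and Npas4 has a log2 fold change of -0.052 and no adjusted p in the authors' deposited table. The members' median was 0.16, beside 0.0035 over all genes tested, and 1 of 9 was below 0, as were 49.2% of all genes tested.

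Of 6 amacrine cell markers 5 fell in the E17.5 knockout and 0 rose, with a median log2 fold change of -0.77, and the falls with the smallest adjusted p were those of Tfap2a (-1.18) and Tfap2b (-1.01), factors of amacrine cells (from the authors' deposited table, with adjusted p between 3.03e-33 and 4.11e-29). Gad1, which makes the transmitter GABA, had the lowest value of the list at -1.36 (from the authors' deposited table, with adjusted p = 8.76e-13). Of 6 blood vessel markers 3 fell and 0 rose (median -0.20), of 6 progenitor markers 2 fell and 0 rose (median 0.044), and 1 rose and 1 fell both of 8 ganglion cell and of 7 Müller glia markers. Of 7 microglia markers 0 rose and 0 fell (1 at an unadjusted p under 0.05, median -0.29). The part of these cell types in the Fosb and Dusp1 values was not tested.

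Other genes of the same response were read as lists, whose counts stand beside the shares of all genes given above. Of the other AP-1 and Maf genes 1 of 7 rose and 1 fell at 14 days (Jund at 0.28 ± 0.10 and Atf3 at -0.59 ± 0.21 by the authors' deposited table, with adjusted p between 0.0328 and 0.0336), 0 of 6 at 48 h and 0 of 7 at E17.5, where 0 of 6 and 2 of 7 had an unadjusted p under 0.05. Jund encodes a Jun protein that is made without a stimulus too, and Atf3 a stress-induced partner. Of Egr3, Egr4, Nab1 and Nab2, the last pair co-repressors of Egr proteins, 0 of 4 changed at 14 days, 0 of 2 at 48 h and 0 of 3 at E17.5 (0, 1 and 0 at an unadjusted p under 0.05).

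Among the Nr4a genes, early response nuclear receptors, 1 of 3 rose at 14 days, 0 of 3 at 48 h and 0 of 3 at E17.5 (2, 0 and 1 at an unadjusted p under 0.05). Nr4a3 had a log2 fold change of 0.82 ± 0.25 and a mean count of 42.0 at 14 days (from the authors' deposited table, with adjusted p = 0.00906). Genes of ERK feedback, the phosphatases and Sprouty or Spred inhibitors that MAP kinase signalling induces, gave 1 rise and 1 fall of 12 at 14 days, 0 of 11 at 48 h (4 at an unadjusted p under 0.05) and 2 rises and 1 fall of 11 at E17.5. At E17.5 the phosphatase genes Dusp7 (0.62) and Dusp6 (0.24) rose and Dusp4 (-0.34) fell (from the authors' deposited table, with adjusted p between 7.96e-05 and 0.0144). At 14 days Spred2, an inhibitor of Ras signalling, rose by 0.56 ± 0.16 and Dusp7 had -0.26 ± 0.089 (from the authors' deposited table, with adjusted p between 0.00496 and 0.0255).

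Of 29 other early response genes 5 rose and 4 fell at 14 days, 1 rose and 1 fell at 48 h, and 2 rose and 5 fell at E17.5, with medians of 0.11, -0.034 and -0.071. Trib1, a pseudokinase gene, had 0.78 ± 0.17 at 14 days and -0.52 ± 0.16 at 48 h (from the authors' deposited tables, with adjusted p = 0.000102 and 0.0415), and the z test gave a difference of 1.304 ± 0.23 (adjusted p = 3.95e-06). Trib1 also fell in the E17.5 knockout, at -0.47 (from the authors' deposited table, with adjusted p = 1.82e-07). Ier5, of the same gene family as Ier2, rose by 0.64 ± 0.13 at 14 days (from the authors' deposited table, with adjusted p = 4.02e-05), and its difference from 48 h was 1.04 ± 0.20 (z test, adjusted p = 2.95e-05). The largest fall of the list at 14 days was that of Gadd45b, a stress and growth arrest gene, at -1.02 ± 0.27 (from the authors' deposited table, with adjusted p = 0.00228). Klf4, a zinc finger factor, rose by 1.22 ± 0.28 in Pou3f1 cells at 48 h (adjusted p = 0.00133) and by 0.99 in the E17.5 knockout (adjusted p = 8.57e-11) in the authors' deposited tables. Socs3, an inhibitor of cytokine signalling, also rose at E17.5 and the antiproliferative gene Btg1 fell, at 0.80 and -0.42 (from the authors' deposited table, with adjusted p between 5.32e-08 and 1.69e-07).

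Genes that neuronal activity induces later gave 2 rises and 0 falls of 12 at 14 days, 1 rise and 0 falls of 11 at 48 h, and 0 rises and 2 falls of 10 at E17.5. Pcsk1, a protease gene of neuropeptide processing, rose by 2.27 ± 0.20 at 14 days and Vgf, a secreted neuropeptide precursor gene, by 0.79 ± 0.25 (from the authors' deposited table, with adjusted p between 1.80e-26 and 0.0107). Inhba, a subunit gene of activin, rose by 0.68 ± 0.20 at 48 h (from the authors' deposited table, with adjusted p = 0.0309). At E17.5 Rgs2, a regulator of G protein signalling, and the neurotrophin gene Bdnf had -0.36 and -0.35 (from the authors' deposited table, with adjusted p between 0.0151 and 0.0222).

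Of 22 upstream regulators, the factors and kinases that switch immediate early genes on, 2 rose and 2 fell at 14 days, 0 rose and 1 fell at 48 h, and 0 rose and 0 fell at E17.5 (1 at an unadjusted p under 0.05). The stress kinase gene Mapk10 (0.67 ± 0.20) and Elk1 (0.31 ± 0.091), whose product works with SRF, rose at 14 days, and Crem (-0.37 ± 0.11), a relative of Creb1, fell (from the authors' deposited table, with adjusted p between 0.00636 and 0.00969). Mef2d, an activity-dependent factor, fell at 48 h with -0.83 ± 0.21 (from the authors' deposited table, with adjusted p = 0.00562). Chaperone genes, many of which answer to heat and to tissue dissociation, gave 1 rise and 3 falls of 12 at 14 days and 2 rises and 2 falls of 12 at E17.5. Hsp90ab1 (0.46 ± 0.12) rose while the inducible Hspa1b (-0.80 ± 0.21) and Hspa1a (-0.79 ± 0.21) fell at 14 days (from the authors' deposited table, with adjusted p between 0.00132 and 0.00272). At E17.5 Hspa8 (-0.95) fell and the mitochondrial chaperone genes Hspe1 (0.55) and Hspd1 (0.27) rose (from the authors' deposited table, with adjusted p between 4.68e-20 and 0.00811).

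**Figure D5:**
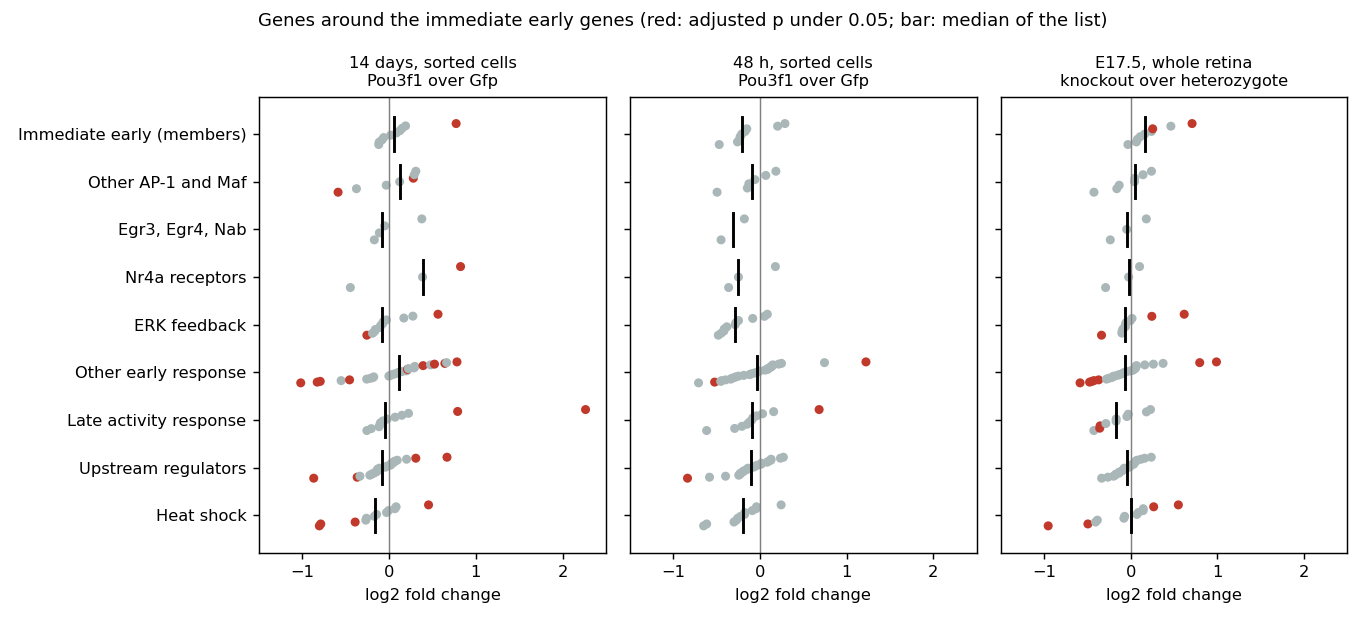
Log2 fold change (horizontal axes) of each gene with an adjusted p in the immediate early genes and 8 related lists, at 14 days (left), 48 h (middle) and E17.5 (right), with red for an adjusted p under 0.05 and a black bar for the median of the list. The medians of all lists lie between -0.31 and 0.39, and red points lie on both sides of 0 in the other early response list in each comparison.

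The genes whose 3 log2 fold changes lay closest to the members' medians of 0.053, -0.21 and 0.16 (14 days, 48 h and E17.5) were the predicted gene Gm10175 and Cops4, Pabpc1, Ergic1 and Ncl, at Euclidean distances of 0.117 to 0.135 over 3 comparisons. They were found among 4350 other genes with an adjusted p in all 3 tables and called in at least 1, of which 40 lay within a distance of 0.2. With 3 points per gene this likeness is a description only.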

How the data were processed

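RNA-seq of 19 mouse retina libraries in 6 groups was used through 3 tables, each a comparison made by the authors. Per the submitters' processing notes, the tools were Salmon, DESeq2 and MACS2 with mm10; no versions or design formula are stated in what was used here. The authors deposited log2 fold changes, p-values and adjusted p in all 3 tables. For the sorted cells the deposited columns also hold the SE, the Wald score (log2 fold change over SE, checked to within 4.45e-07) and a signal, the mean over libraries of counts divided by size factors. The SE stays at or under 0.297 even for rare genes, and genes with a mean count under 1 have a median absolute fold change of 0.029 at 14 days, so fold changes are shrunken toward 0 and may understate change. At E17.5 no SE is given, but the members' fold changes and p-values imply a median of 0.164. Those fold changes may be shrunken as well. The authors' adjusted p matched Benjamini-Hochberg over the genes that have one to within 5.60e-06.

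Calls rest on an adjusted p under 0.05 as the authors give it. Computed here were 95% intervals from the deposited SE, the fold change needed for a call (the Wald score at the largest called p, times SE), the z test between times, levels per kilobase of exon (GENCODE mouse release 21) and promoter matches. The z test, which takes the shrunken SE as given, was tried on simulated data. Those data were drawn with the deposited SE and without shrinkage. They therefore cannot show how the test behaves on shrunken fold changes. Members and lists were chosen with earlier results of these data known. Genes named are all members, Pou3f1, up to 3 called genes per list by adjusted p (2 per marker list) and the 5 most alike. The differences between times of Trib1, Ier5 and Klf4 were chosen after their values were seen. Alternatives were other limits, adjustments, count filters and centring. Software was scipy 1.17.1, numpy 2.4.6, pandas 2.3.3 and matplotlib 3.10.9 under Python 3.11.15.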

Additional observations from a re-analysis of the deposited data

How the results depend on the processing

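At 14 days the count of 1 called member (Egr2) was also 1 with adjustment over all genes, a mean count of at least 10, or centring on the median. It was 0 at an adjusted p under 0.01 and 0 with a 2-fold limit, which Egr2 misses at 1.71-fold, and 2 (Egr2 and Jun) at an unadjusted p under 0.05. The 2 called members at E17.5 became 1 (Fosb) at an adjusted p under 0.01 and 1 (Fosb) with adjustment over all genes, and 0 with a 2-fold limit. The counts of 0 at 48 h and for the difference between times were 0 under every alternative tried for them, and over all genes the 48 h count ran from 106 with a 2-fold limit, against 447, to 2170 at an unadjusted p under 0.05. Counts over all genes at 14 days were 3690, against 2066 at an adjusted p under 0.01 and 496 with a 2-fold limit. At E17.5 they were 1487, against 874 and 57. The 2-fold limit was set on deposited fold changes, which are shrunken in the sorted cells and may be at E17.5. Counts under it are therefore not comparable between the tables. The medians of the members kept their sign under each centring, the largest shift being -0.033 at 48 h. No paired analysis was possible because the tables hold no values per library, and for the same reason no replicate could be left out. At 14 days the fold needed for a call was largest for Arc, Npas4 and Egr2, the members with the lowest counts, while at 48 h it was largest for Fosb and then Egr1, whose mean count was 1160.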
